A study of Mus musculus with 5 samples.

Results

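Forkhead box (FOX) genes encode transcription factors that share a winged-helix DNA-binding domain. Every row of the deposited table whose symbol belongs to the lettered FOX series A to S was taken, other than Foxl1 and a FOXP paralog, which the selection leaves out. This gave 35 genes of the 17739 in the table. A further 7 protein-coding genes whose symbols fit the same pattern in the GENCODE M21 annotation are not analysed here.

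The samples are 5 libraries of cerebellar tumour cells, dissociated with papain, from mice of the genotype Math1-Cre;Gli2A, fed a doxycycline (DOX) diet since conception, in which GLI2 is labelled as active. Math1-Cre acts in the precursors of cerebellar granule neurons, the cells from which Sonic hedgehog (SHH) medulloblastoma arises, and GLI2 is the main transcriptional activator of that pathway. The labels give neither a sort of the dissociated cells nor the sex or age of the animals, and they do not say that each tumour number is a separate animal. All 5 libraries fall in 1 group, so nothing here compares conditions, and the spread between libraries may be partly technical. Tumours are called by the numbers in their titles, and values are given in the order 1, 5, 8, 14 and 15.

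Several branches of the family have known roles in this setting. FOXM1 drives genes of mitosis. FOXO factors, several of which the kinase AKT keeps out of the nucleus, activate genes of cell cycle arrest, apoptosis and stress defence. Foxa2 is induced by SHH in the floor plate of the neural tube, and Foxf1 and Foxf2 are induced by hedgehog ligands in mesenchyme. FOXK and FOXP factors act mostly as repressors, and Foxj1 switches on the genes of motile cilia.

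Patterning genes differed most between tumours within the family. Of the 35 genes, 25 (71.4%) had a mean of at least 5 on the deposited log2 scale, somewhat below the 77.2% of all genes. Per unit of exon length, Foxm1 and Foxa2 were the highest. Foxd2, Foxf1, Foxe1, Foxa2 and Foxf2 spanned more than 2-fold between tumours, and each of these 5 was lowest in tumour 5. That is 5 of 25 genes (20%), against 3.79% of all genes with a mean of at least 5. Without tumour 5 the count was 3 of 25, against 1.82%. Foxl1, left out by the selection, is not in these counts. The value of 5 served as the limit of expression, and a span is the highest minus the lowest of the 5 tumours. Around that limit, Foxs1 lay just above (5.07) and Foxn4 just below (4.67).

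Of the 5 strongly varying genes, 3 could be matched to RefSeq promoter windows (GRCm38.p6), and the 250 bases before their start sites are shown to let a reader see the sequence these genes start from. Foxa2 has 3 windows, of which the 2 farther upstream are shown. The words distal and proximal refer to these 2 only, since the third lies farther downstream. Capitals mark the GC box, GGGCGG on either strand. The Foxa2 windows lie on the minus strand at chr2:148046970-148047219 and chr2:148045949-148046198, the Foxd2 window on the minus strand at chr4:114908899-114909148, and the Foxf2 window on the plus strand at chr13:31625566-31625815.
Foxa2, distal start: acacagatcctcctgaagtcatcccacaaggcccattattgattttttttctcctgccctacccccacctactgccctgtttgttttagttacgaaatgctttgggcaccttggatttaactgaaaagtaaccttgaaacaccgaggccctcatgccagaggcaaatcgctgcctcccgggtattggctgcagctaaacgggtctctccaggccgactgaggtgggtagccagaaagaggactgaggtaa
Foxa2, proximal start: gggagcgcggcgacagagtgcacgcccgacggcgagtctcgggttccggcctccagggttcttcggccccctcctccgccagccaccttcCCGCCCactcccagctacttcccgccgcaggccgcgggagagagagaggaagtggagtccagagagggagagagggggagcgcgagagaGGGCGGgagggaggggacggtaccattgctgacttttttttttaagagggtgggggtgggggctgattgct
Foxd2: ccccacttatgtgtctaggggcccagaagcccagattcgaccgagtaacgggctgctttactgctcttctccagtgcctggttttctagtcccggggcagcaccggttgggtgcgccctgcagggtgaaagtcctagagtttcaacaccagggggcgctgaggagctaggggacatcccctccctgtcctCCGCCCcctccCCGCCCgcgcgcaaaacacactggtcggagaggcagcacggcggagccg
Foxf2: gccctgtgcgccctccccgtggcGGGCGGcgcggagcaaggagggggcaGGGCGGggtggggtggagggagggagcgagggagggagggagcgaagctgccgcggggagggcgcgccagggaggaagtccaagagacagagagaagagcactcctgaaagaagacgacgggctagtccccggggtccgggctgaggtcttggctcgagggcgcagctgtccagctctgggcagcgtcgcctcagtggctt

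The distal Foxa2 window held no GC box and was 50.8% G or C, whereas the proximal Foxa2 window held 2 GC boxes and was 67.2% G or C. The third Foxa2 window, which is not shown, held 1 GC box and was 54.4% G or C. The Foxd2 window held 2 GC boxes (64.4% G or C), as did that of Foxf2 (71.6%). The median over all 32851 promoter windows was 52.4%. In all, 21 of the 35 genes had a promoter entry, with 26 windows. A GC box was in 19 of these 26 windows, against 32.7% of all windows of the same length. The CCAAT box, searched as CCAAT on both strands, was in 10 of 26, against 33.8% of all windows. The GLI motif GACCACCCA, searched on both strands, was in 0 of the 26 windows and in 0.225% of all. A forkhead motif, TGTTTAC on either strand, was in 1 of 26, that of Foxa1, against 3.17% of all. These searched motifs do not overlap each other in sequence, and a match or its lack is only a description of these 250 bases.

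**Figure D1:**
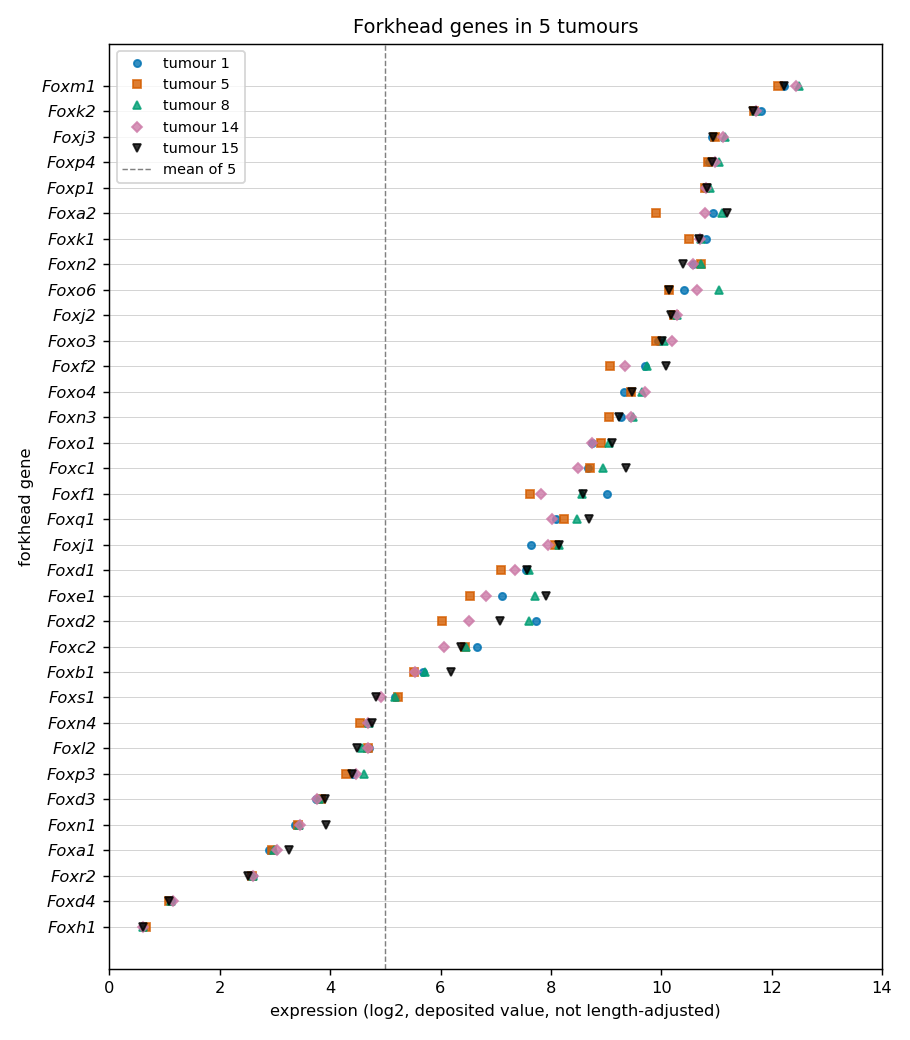
Deposited log2 values (horizontal axis, not adjusted for length) of 34 forkhead genes, one row per gene in order of mean, with a symbol for each of the 5 tumours. The 9 genes left of the dashed line have means under 5, and the tumour 5 symbols of Foxa2, Foxf1, Foxe1, Foxd2 and Foxf2 lie left of the other 4.

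Foxm1, which drives entry into and passage through mitosis, was the most abundant forkhead gene on both the deposited scale and per length. It lies on GRCm38 chromosome 6, 128362967 to 128376146. Its values were 12.22, 12.11, 12.50, 12.45 and 12.22 (mean 12.30 ± 0.17, SD, n = 5), above 96.0% of genes in the table. Tumours 8 and 14 were high, tumour 5 was lowest, and the whole span was 1.31-fold. Its gene body overlaps that of Tex52 on the same strand, so some reads may have been shared.

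Genes that FOXM1 is known to activate were expressed in every tumour. All 15 listed mitotic targets reached a mean of 5, with medians of 10.57, 10.53, 10.80, 10.80 and 10.66. Tpx2, a spindle assembly factor, averaged 12.22 ± 0.12 and Cenpf, a kinetochore protein gene, 11.73 ± 0.14 (SD, n = 5 each). None of the 15 spanned 2-fold, but only 3.79% of all genes with a mean of at least 5 did. Of the 15, 11 were lowest in tumour 5, as Foxm1 was. For all genes with a mean of at least 5 that share was 24.6%. Ccnb2, a mitotic cyclin, had the widest span of the list at 0.58. Among 13 partners of FOXM1, which include subunits of the MuvB complex and cell cycle kinases, Rbbp4 averaged 12.48 ± 0.04 and Ccna2, the S phase cyclin, 12.29 ± 0.12. Mybl2, the MuvB partner in S phase, had values of 9.92, 9.68, 10.10, 10.08 and 9.80, low in tumour 5 and high in tumours 8 and 14. Of the 13 partners, 7 were lowest in tumour 5 (24.6% of all genes) and 7 were highest in tumour 8 (18.5%).

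The levels of different forkhead genes were compared after subtracting log2 of the exon length in kilobases (the union of all annotated exons). Genes named from the pathway and marker lists are mostly those of highest deposited value, which is not adjusted for length and gives no order of abundance. On that length-adjusted log2 scale the order began with Foxm1 (9.77), Foxa2 (9.54), Foxk2 (9.32), Foxo6 (9.09), Foxp4 (8.63) and Foxf2 (8.35). Then came Foxj2 (7.82), Foxk1 (7.76), Foxo4 (7.72) and Foxn2 (7.72). Foxa2 thus stood second in the family, although it was sixth on the unadjusted scale. The top of the order was not sharp: Foxm1 exceeded Foxa2 by 0.24 ± 0.45, Foxa2 exceeded Foxk2 by 0.22 ± 0.50 and Foxk2 exceeded Foxo6 by 0.23 ± 0.37 (mean ± SD over 5 tumours), each in 4 of 5 tumours. Of the 24 neighbouring pairs in the order, 14 differed by no more than 1 SD, and 8 kept their order in 5 of 5 tumours. The bottom of the 25 was held by Foxd1 (5.09), Foxc2 (4.95), Foxs1 (4.68) and Foxb1 (4.15). With the longest transcript in place of the union, the first 5 genes were in the same order, while Foxj3 moved from rank 11 to 6 and Foxp1 from 14 to 9.

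**Figure D2:**
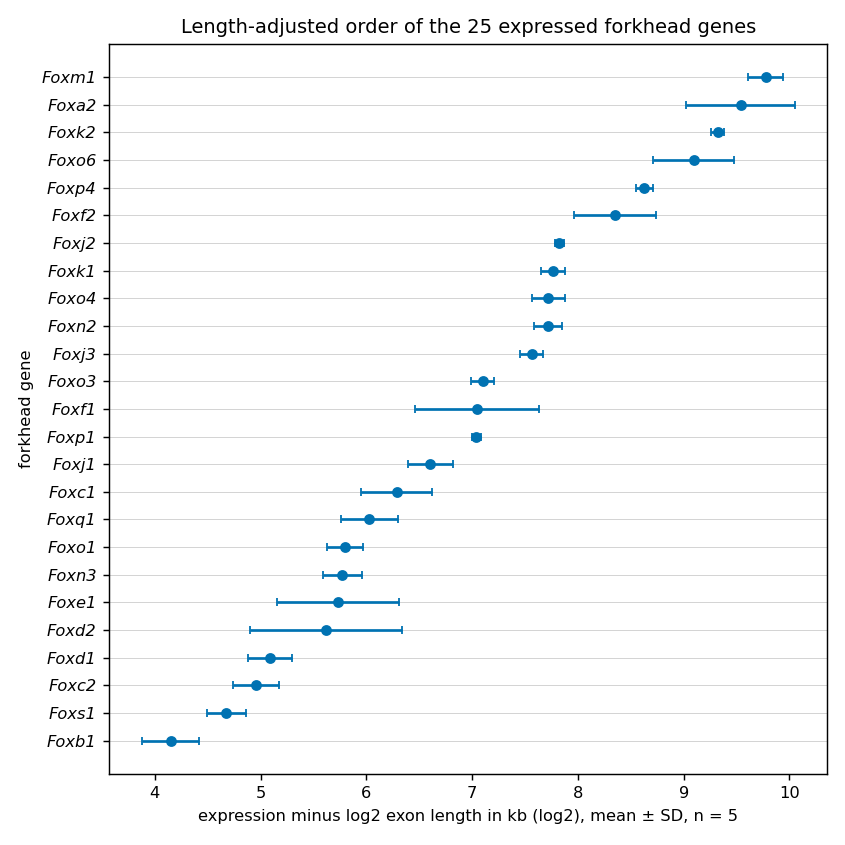
Deposited log2 value minus log2 exon length in kilobases (horizontal axis) for the 25 forkhead genes with a mean of at least 5; points are means and bars the SD over 5 tumours. Foxm1, Foxa2, Foxk2 and Foxo6 lead with overlapping bars, between 9.77 and 9.09.

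All 4 FOXO genes were expressed, with Foxo6 highest per length and most variable. Foxo6, a brain-enriched FOXO factor, had values of 10.42, 10.15, 11.05, 10.66 and 10.13 and spanned 1.89-fold, just short of the 2-fold limit. It was highest in tumour 8 and lowest in tumours 5 and 15. Foxo3, the FOXO factor linked to apoptosis and quiescence, was nearly level at 9.95, 9.91, 10.04, 10.19 and 10.02. Foxo4, an X-linked FOXO factor, had 9.32, 9.45, 9.65, 9.71 and 9.47, lowest in tumour 1 and highest in tumour 14. The last of the 4 was lowest per length. Foxo1, the main FOXO factor of insulin signalling, had values of 8.75, 8.91, 9.05, 8.75 and 9.10. Per length, Foxo6 exceeded Foxo3 in each of 5 tumours (Foxo3 minus Foxo6 -1.99 ± 0.34). Foxo1 lay below Foxo3 (-1.30 ± 0.21), also in each of 5 tumours. Foxo3 minus Foxo4 was -0.62 ± 0.09 per length but 0.50 without length adjustment, so their order rests on that step.

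The listed regulators of FOXO factors were mostly level between tumours, and their targets less so, with median spans of 0.19 and 0.47 against 0.27 for all genes with a mean of at least 5. All 19 listed regulators reached a mean of 5, and their median lay between 11.26 and 11.47. Ywhaz, a 14-3-3 protein gene, averaged 13.59 ± 0.04 and Akt1 13.11 ± 0.09. Sgk1, a kinase that also inhibits FOXO factors, was the widest of the list at 9.90, 10.88, 10.69, 10.34 and 10.28, high in tumour 5 and low in tumour 1. All 22 listed FOXO targets reached a mean of 5. Of these 22, 2 spanned more than 2-fold, against 3.79% of all genes with a mean of at least 5. Klf2, a transcription factor also abundant in endothelium, had values of 9.49, 10.66, 10.25, 10.12 and 9.82. Bcl6, a transcriptional repressor, had 8.13, 8.63, 8.44, 8.45 and 9.24. Both were lowest in tumour 1, while Klf2 was highest in tumour 5 and Bcl6 in tumour 15. Cdkn1b, the cell cycle inhibitor p27, averaged 12.55 ± 0.03 and was level, and Klf6 averaged 12.14 ± 0.28. The target list's median was 10.55, 10.48, 10.45, 10.48 and 10.40.

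The 8 FOXK, FOXP, FOXJ2, FOXJ3, FOXN2 and FOXN3 genes that reached a mean of 5 varied about as much as a typical gene. Their median SD between tumours was 0.10, against 0.11 for all genes with a mean of at least 5. These 8 genes had means from 9.30 to 11.72. Their spans ran from 1.07-fold to 1.36-fold, against a median of 1.21-fold for all genes. Foxn3, Foxn2 and Foxk1 lay above that median. Foxk2, a repressor that recruits SIN3 and BAP1 complexes, had values of 11.81, 11.68, 11.72, 11.71 and 11.66. Its paralog Foxk1 had 10.82, 10.51, 10.72, 10.70 and 10.68. Foxk1 lay below Foxk2 by a nearly fixed amount per length in tumours 1, 8, 14 and 15 (between -1.54 and -1.51) and by more in tumour 5 (-1.69). The 9 listed FOXK partners had a median between 11.41 and 11.58, with the highest deposited values at Hcfc1 (13.22 ± 0.10) and Ogt (12.50 ± 0.12). None of the 9 spanned 2-fold, but only 3.79% of all genes with a mean of at least 5 did.

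Foxp1 and Foxp4, repressors with roles in neural development, were both nearly level between tumours. Foxp1 was the most level of all 25 genes, at 10.79, 10.79, 10.89, 10.81 and 10.83. Foxp4 had values of 10.86, 10.85, 11.04, 10.97 and 10.92. Per length Foxp1 lay below Foxp4 by -1.59 ± 0.05 in 5 of 5 tumours, and by -0.95 with the longest transcript, since the union of Foxp1 exons (13.8 kb) is far longer than its longest transcript (7.18 kb). The 12 genes of the NuRD and CtBP complexes, corepressors with which FOXP factors work, had their highest deposited values at Chd4 (13.79 ± 0.07) and Ctbp1 (12.90 ± 0.07). None of the 12 spanned 2-fold, but only 3.79% of all genes with a mean of at least 5 did.

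Foxj2 and Foxj3, broadly expressed activators, and Foxn2 and Foxn3, of which Foxn3 is a repressor tied to the DNA damage checkpoint, were present in every tumour. Foxj3 had values of 10.91, 10.97, 11.16, 11.11 and 10.94. Foxj2 was level at 10.23, 10.23, 10.29, 10.28 and 10.18. Their order is uncertain: Foxj2 minus Foxj3 was 0.26 ± 0.08 per length of all exons, but -0.92 with the longest transcript and -0.78 without adjustment. Foxn2 had 10.58, 10.72, 10.72, 10.57 and 10.39, and Foxn3 9.27, 9.05, 9.49, 9.45 and 9.23. Foxn2 exceeded Foxn3 by 1.94 ± 0.22 per length, in 5 of 5 tumours. Of 4 checkpoint partners, Snw1 (11.14 ± 0.04) and Men1 (11.01 ± 0.07) had the highest deposited values. None of the 4 spanned 2-fold, but only 3.79% of all genes with a mean of at least 5 did.

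Foxa2, a pioneer factor of floor plate and endoderm, was the highest of the patterning genes per length. It lies on chromosome 2, 148042877 to 148046969, and has the promoter windows printed above. Its deposited values were 10.93, 9.91, 11.09, 10.79 and 11.19. Tumour 5 lay 1.11 below the median of the other 4, which lay within 0.40 of each other, so that the 2.44-fold span rests on that tumour. The paralog Foxa1 averaged 3.02 ± 0.14, and Foxa1 minus Foxa2 was -8.25 ± 0.46 per length. Other genes of the floor plate and roof plate were lower per length: Nkx2-2 averaged 7.46, Lmx1a 4.62 and Shh itself 2.89 on the length-adjusted scale, against 9.54 for Foxa2. Of 6 such genes in the table, 3 reached a mean of 5, and 1 was lowest in tumour 5, Nkx2-2, which is also expressed in oligodendrocyte precursors. The list's medians ran from 4.60 to 4.86, highest in tumour 5.

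Foxf1 and Foxf2, mesenchymal genes that answer to hedgehog ligands, followed the same order of tumours at the bottom and differed at the top. Foxf2 had values of 9.70, 9.08, 9.74, 9.34 and 10.08, a 2.01-fold span. Foxf1 had 9.01, 7.62, 8.56, 7.81 and 8.59, a 2.64-fold span. On chromosome 13 (31625816 to 31631403) and chromosome 8 (121084386 to 121088144), both were lowest in tumour 5 and next lowest in tumour 14, but Foxf1 peaked in tumour 1 and Foxf2 in tumour 15. Foxf1 lay below Foxf2 in each of 5 tumours, by -0.71 per length in tumour 1 and by -1.21 to -1.56 in the others. Foxf1 spanned 0.97 without tumour 1, and Foxf2 0.74 without tumour 5, 0.67 without tumour 15 and 0.99 after centring each library on its median, all under the limit of 1.

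Foxd2, a patterning gene of cranial mesenchyme and somites, varied most of all 25 genes. It lies on chromosome 4, 114906282 to 114908873, and had 7.73, 6.03, 7.60, 6.51 and 7.08, a span of 3.24-fold, high in tumours 1 and 8 and low in tumours 5 and 14. Foxe1, a thyroid and palate factor on the same chromosome (46343609 to 46346412), had 7.10, 6.54, 7.71, 6.82 and 7.91, a span of 2.59-fold. Its high tumours were 15 and 8. Foxd1, a stromal gene, had a smaller span, from 7.10 in tumour 5 to 7.59 in tumour 8. Foxb1, a gene of the developing hypothalamus and hindbrain, was weak and highest in tumour 15, at 6.19 against 5.52 to 5.71. If the values are regularised logs, those of weak genes are drawn towards the gene's mean, which makes their spans smaller.

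Foxc1 and Foxc2, genes of meninges and vessel walls, Foxq1, an endothelial gene, and Foxs1, a pericyte gene, completed this group. Foxc1 had values of 8.67, 8.70, 8.95, 8.48 and 9.36. Foxc2 had 6.66, 6.45, 6.46, 6.06 and 6.37, and Foxq1 8.10, 8.24, 8.47, 8.03 and 8.68. These 3 were lowest in tumour 14, not tumour 5, and Foxc1 and Foxq1 were highest in tumour 15. Foxs1, at 5.18, 5.24, 5.18, 4.91 and 4.83, was the only 1 of the 25 genes with its highest value in tumour 5. Foxc1 exceeded Foxc2 by 1.33 ± 0.36 per length, in 5 of 5 tumours.

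Several of these genes are neighbours. Foxf1 and Foxc2 lie 28.0 kb apart on chromosome 8, and Foxq1, Foxf2 and Foxc1 follow each other on chromosome 13 with gaps of 64.8 and 175 kb. Foxq1 and Foxc1 had the same order over all 5 tumours, and the other neighbours did not: Foxf1 was lowest in tumour 5 and Foxc2 in tumour 14, and Foxf2 was lowest in tumour 5 while Foxq1 and Foxc1 were lowest in tumour 14. On chromosome 13, however, all 3 genes peaked in tumour 15. The annotated gene Gm20388 overlaps both Foxf1 and Foxc2 on their strand, so reads of these 2 genes may have been split or dropped by the authors' counting. Antisense genes overlap Foxb1, Foxe1, Foxo1 and Foxp4, among others, and the strand setting of the counting is not given in the sources used here.

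**Figure D3:**
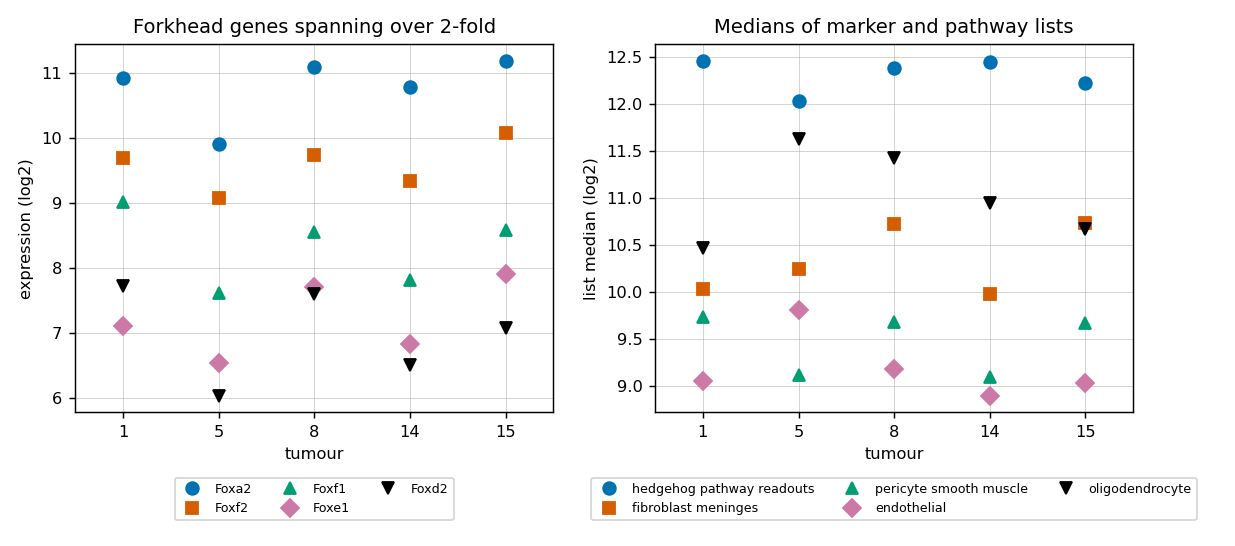
Left, log2 expression (vertical axis) of the 5 forkhead genes spanning over 2-fold, by tumour; right, medians (log2) of 5 fixed gene lists in the same tumours. Each forkhead gene on the left is lowest in tumour 5, where the oligodendrocyte (11.63) and endothelial (9.81) medians are highest and the hedgehog median (12.03) lowest.

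Values of other gene groups are given beside these patterning genes, and each group shared only part of their order of tumours. Hedgehog pathway readouts were lowest in tumour 5 for 9 of 10 genes, against 24.6% of all genes with a mean of at least 5. Their list medians were 12.46, 12.03, 12.38, 12.45 and 12.23. Ptch1, the hedgehog receptor and target (14.47 ± 0.32), and Ccnd2, a cyclin (14.27 ± 0.27), had the highest deposited values of that list. In tumour 14, where the 5 patterning genes were also low, 4 of the 10 readouts were highest, against 15.8% of all genes. Gli1 was among the 4, at 12.53. Hhip, a hedgehog feedback inhibitor, had 12.52, 11.13, 12.19, 11.77 and 12.23, and differed from those 4 in being low in tumour 14 as well as tumour 5. Ptch1, too, was lowest in tumour 5 (13.92) and next lowest in tumour 14 (14.45). Pericyte and smooth muscle markers had medians of 9.74, 9.11, 9.68, 9.10 and 9.67, also low in tumours 5 and 14, with Acta2, the smooth muscle actin gene, at 10.27, 8.91, 9.81, 8.78 and 9.57. Of the 10 pericyte and smooth muscle markers, 2 were lowest in tumour 5 and 5 in tumour 14. The shares of all genes with a mean of at least 5 were 24.6% and 13%. Among the 5 was Higd1b, whose mean of 4.45 is under that limit. Vtn, expressed by pericytes, was highest in tumour 5 at 10.63. The summed level of these 10 markers, as log2, was 12.92 in tumour 5, against 12.77 to 13.33. Of the fibroblast and meninges markers, 4 of 9 were lowest in tumour 5, against 24.6% of all genes. Their medians were 10.03, 10.24, 10.73, 9.98 and 10.73, highest in tumours 8 and 15 and not lowest in tumour 5. Their summed level was 14.51 in tumour 5, against 14.62 to 15.33. Endothelial markers went the other way, with 8 of 10 highest in tumour 5, against 24.1% of all genes. Their summed level was 13.08 there, against 12.33 to 12.66. Markers with the highest deposited values, not adjusted for length, were Flt1 (10.17) and Cdh5 (10.03) for endothelium, Rgs5 (11.12) and Cspg4 (10.71) for pericytes, and Igf2 (13.36) and Col3a1 (13.27) for fibroblasts and meninges. Cspg4, 1 of the 2 pericyte markers lowest in tumour 5, is also in the list of oligodendrocyte precursor markers. None of the endothelial, pericyte, fibroblast and meninges markers was at 0, but no gene was, the lowest value of all being 0.33. The part of these cell types in the forkhead differences was not tested. In bulk tumours, fewer cells of a type and less RNA per cell cannot be told apart.

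Foxj1, the master regulator of motile cilia, was higher per length than 21 of the 23 motile cilium genes in the table, many of them its known targets. Its deposited values were 7.64, 8.08, 8.16, 7.95 and 8.14, lowest in tumour 1 and between 7.95 and 8.16 in the other 4. Of these 23 genes, 16 reached a mean of 5, and the list median was 4.99, 5.31, 5.25, 5.37 and 5.41. That median was also lowest in tumour 1. Rfx3 (10.26 ± 0.11) and Tppp3 (9.92 ± 0.31), both of which are expressed beyond ciliated cells, had the highest deposited values, while the dynein genes Dnah5, Dnah9 and Dnah11 averaged 4.75, 5.48 and 5.44. Ependymal markers had medians from 4.55 to 4.92, and 3 of 9 reached a mean of 5. Mia and Cfap126 had deposited means of 6.42 and 6.01.

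The other 10 genes had means from 0.62 to 4.67, and none spanned more than 0.56. Foxa1, the paralog of Foxa2, averaged 3.02 ± 0.14. Markers of the telencephalon as a list had medians from 3.18 to 3.26, with 1 of 6 reaching a mean of 5 (Lhx2, 7.86). Foxp3, the regulatory T cell factor, averaged 4.43 ± 0.12, and its gene body overlaps that of Ccdc22 on the opposite strand. Of the T cell markers, 2 were in the table, Cd4 at 6.20 and Cd3g at 0.49. Foxr2, an oncogene in some embryonal brain tumours, averaged 2.58 ± 0.04. Foxn4, a retinal and spinal interneuron factor, averaged 4.67 ± 0.08, Foxl2, an ovarian factor, 4.63 ± 0.09, and Foxd3, a neural crest factor, 3.81 ± 0.06. Foxn1, the thymic epithelial factor, averaged 3.52 ± 0.23 and reached 3.93 in tumour 15. Foxd4 averaged 1.11 ± 0.03, and Foxh1, a partner of SMAD proteins, was lowest at 0.62 ± 0.02. At such levels a value may reflect few or no reads, and depth is unknown.

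The 12 pairs of genes compared per length gave the same sign in 5 of 5 tumours each. With 5 libraries the exact two-sided sign-flip permutation test cannot go below p = 0.0625, which every pair reached (Benjamini-Hochberg adjusted over 12 pairs, 0.0625), so none could pass 0.05. Beyond those given above, Foxm1 exceeded Foxo3 by 2.67 ± 0.10 and Foxk2 by 0.45 ± 0.17 per length.

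**Figure D4:**
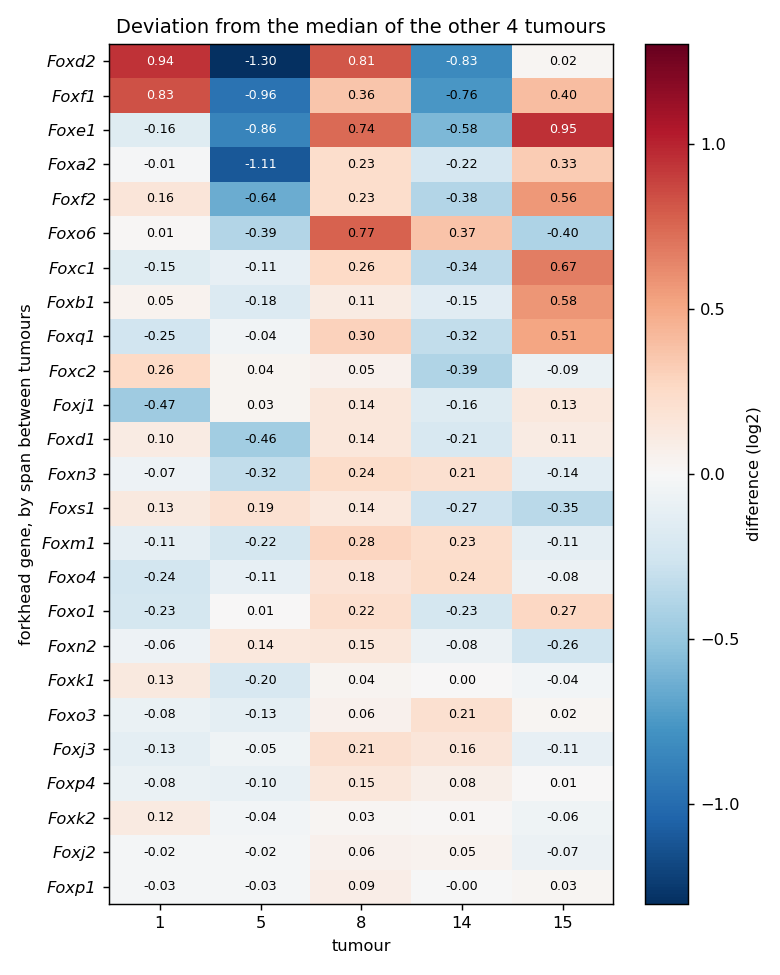
Log2 difference of each tumour (columns) from the median of the other 4, for the 25 forkhead genes with a mean of at least 5 (rows, widest span at the top); red is higher and blue lower. The column of tumour 8 is above 0 in all 25 rows, and the 5 top rows are negative in tumour 5 and in tumour 14.

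The lowest and highest values of the 25 genes were unevenly spread over the tumours. Of the 25 genes, 13 (52%) were lowest in tumour 5, against 24.6% of all genes at that level of expression. There, 1 (4%) was highest, against 24.1%. The 13 included 7 of the 11 patterning and mesenchymal genes, 4 of the 8 FOXK, FOXP, FOXJ and FOXN genes, Foxo3 and Foxm1. In tumour 8, 10 genes (40%) were highest, against 18.5%, and 0 were lowest, against 22.6%. Without tumour 15 the count highest in tumour 8 was 17, against 23.3%. The 10 were Foxm1, Foxo6, Foxd1, Foxj1, Foxj2, Foxj3, Foxn2, Foxn3, Foxp1 and Foxp4. Tumour 15 held the highest value of 7 genes (28%, against 21.4%), of which 6 were patterning and mesenchymal genes, and the lowest of 5 (20%, against 22.9%). Tumour 1 was highest for 5 (20%, against 20.2%) and lowest for 3 (12%, against 16.9%). Tumour 14 was highest for 2, Foxo3 and Foxo4 (8%, against 15.8%), and lowest for 4 (16%, against 13%).

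Counted another way, chosen after the values were seen, all 25 genes in tumour 8 lay above the median of the other 4 tumours, against 50.9% of all genes with a mean of at least 5. The shift was small: its median was 0.18 for the 25 genes and 0.00 for all genes. It was largest for Foxd2 (0.81), Foxo6 (0.77) and Foxe1 (0.74) and smallest for Foxk2 (0.03) and Foxk1 (0.04). In tumour 5, 5 of 25 genes lay above the others (48.1% of all genes) and the median shift was -0.11. The median shift was lower still in tumour 14 (-0.15), and it was -0.03 in tumour 1 and 0.02 in tumour 15. The counts were 10 in tumour 1 (52%), 10 in tumour 14 (50.2%) and 14 in tumour 15 (47.6%). The median SD between tumours was 0.18 for the 25 genes and 0.11 for all genes with a mean of at least 5. No single tumour stood isolated from the rest by Dixon's ratio for any of the 25 genes (0 of 25, against 5.57% of all genes). With 5 libraries these counts are descriptions and carry no test.

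Tumour 5 also stood apart in markers of other cells. Oligodendrocyte markers were highest there for 8 of 8 genes (summed log2 level 15.87 against 14.49 to 15.51), microglia and macrophage markers for 9 of 10 (13.98 against 13.16 to 13.42) and choroid plexus markers for 7 of 8 (14.88 against 13.36 to 13.55). Over all genes with a mean of at least 5, 24.1% were highest in tumour 5. Markers of high deposited value, not adjusted for length, were Mbp (14.08) for oligodendrocytes, Csf1r (11.24) for microglia and macrophages, and Ttr (13.43) and Otx2 (10.60) for choroid plexus, of which Otx2 is also a cerebellar progenitor gene. Granule neuron progenitor markers were present in all 5 tumours, with medians from 12.76 to 13.07, as were granule neuron markers (12.39 to 12.65). In each of these lists 2 of 8 genes spanned over 2-fold, against 3.79% of all genes. Atoh1 (8.00 to 9.49) and Mfap4 (10.56 to 11.83) were lowest in tumour 1. Gabra6 (6.14 to 7.79) and Grin2c (7.09 to 8.73) were highest in tumour 5, as were 4 of the 8 granule neuron markers in all. Astrocyte and Bergmann glia markers had medians from 10.59 to 11.09 and oligodendrocyte precursor markers from 11.28 to 11.87, and those of Purkinje cells from 7.21 to 7.70 and of GABAergic interneurons from 4.97 to 5.39. The part of the oligodendrocyte, microglia and choroid plexus markers in the tumour 5 counts was not tested.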

How the data were processed

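Tumour RNA was measured by strand-specific mRNA sequencing, per the labels' protocols. The submitters' processing notes name STAR 2.4.1, featureCounts, Subread 1.4.6 and DESeq2, with the builds mm10 and GRCm38; no source used here gives the annotation, strand setting or gene filter. The deposited values are on a log2 scale (0.33 to 16.9) and are read here as regularised-log values, which no source states outright. They are corrected for library size, not for transcript length, and shrink differences at weak genes. Of 7 columns, 5 match samples; 2 match none and were left out, although the authors may have transformed them together. Depth is unknown, since the values are not read counts; column medians lay between 8.51 and 8.58.

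Exon lengths and positions came from GENCODE M21 (GRCm38), where 97.5% of symbols matched exactly 1 gene. The members, gene lists and pairs were chosen with earlier results of these data known. Named with all 5 values are the 10 genes highest per length, those spanning over 2-fold, those in a pair and those with an isolated tumour, if their mean reached 5, and some others for completeness; from each pathway list, the 2 of highest mean and any spanning over 2-fold; genes beyond these were chosen after their values were seen. Pairs were tested by an exact sign-flip permutation (32 sign patterns) with Benjamini-Hochberg adjustment. Alternatives were other expression limits and folds, centring, other lengths, list means and leaving out each tumour. Steps were tested on simulated data. Values of some genes are not reported here. Python 3.11.15, numpy 2.4.6 and pandas 2.3.3 were used.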

Additional observations from a re-analysis of the deposited data

Results flagged for a closer look

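By Dixon's ratio (critical value 0.71 for 5 samples), 1 tumour was isolated from the other 4 for the following 3 weakly expressed forkhead genes. Tumour 15 was isolated on the high side for Foxn1 (0.866) and on the low side for Foxr2 (0.739), and tumour 5 on the high side for Foxh1 (0.979). All 3 genes have means under 5, and the spans are 0.56, 0.09 and 0.05 on the log2 scale. Chance flags about 1 in 20 such groups.

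Among differences between paired genes, that of Foxk1 minus Foxk2 was isolated in tumour 5 (0.865) and that of Foxm1 minus Foxo3 in tumour 8 (0.725). Among list medians, tumour 5 was isolated for Purkinje cell markers (0.82) and for telencephalic markers (0.716), on the high side in both.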

How the results depend on the processing

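No paired analysis was possible because the labels give only 1 group. The count of forkhead genes spanning over 2-fold (5) was 10 at 1.5-fold (14.7% of all genes) and 1 at 3-fold (0.562%). With a tumour left out it was between 3 (without tumour 5) and 5, against 1.82% to 3.66% of all genes. The count lowest in tumour 5 (13) stayed within 1.5 times under all 7 alternatives tried, where the share of all genes ran from 22.4% to 30.7%. The count highest in tumour 5 (1) was 2 of 35 without a filter on low values (25.3% of all genes) and 0 of 21 with a mean of at least 7 (22.2%). With another tumour left out it was 1 to 2 of 25, against 27% to 29%. The count highest in tumour 8 (10) was 11 to 17 with another tumour left out, 17 being without tumour 15. The share of all genes rose as well, from 18.5% to between 23% and 26%. The count highest in tumour 15 (7 of 25) was 12 of 35 without a filter, against 21.9% of all genes. In the count added after seeing the data, the 25 of 25 above the others in tumour 8 was 31 of 35 without a filter (50.9% of all genes). With another tumour left out it was 24 or 25 of 25, against 49.8% to 51.4% of all genes. The 5 above the others in tumour 5 became 8 of 35 without a filter (49.9% of all genes) and 3 of 21 with a mean of at least 7 (46.3%). With a tumour left out they were 3 to 9 of 25 (9 without tumour 8), against 48.3% to 49% of all genes. Of 84 recomputed pair differences 3 changed sign: Foxo3 minus Foxo4 (0.50) and Foxj2 minus Foxj3 (-0.78) without length adjustment, and Foxj2 minus Foxj3 (-0.92) with the longest transcript. Of 175 recomputed list medians, 22 moved by more than 1 SD. Weak genes, where log2 values are shrunken, limit what spans can show.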
